A study of Homo sapiens with 6 samples.

Results

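The cation-chloride cotransporters of the SLC12 family were followed in RKO, a human line from a poorly differentiated carcinoma of the colon, through 6 members: SLC12A2, SLC12A3, SLC12A4, SLC12A7, SLC12A8 and SLC12A9. They are 6 of the 27980 gene symbols in each count table, and were found by symbol. They were chosen with the difference between the groups in these same libraries already known, so their levels and differences are given as a description, with no test. All 6 had enough counts to enter the fit across genes. SLC12A1 and SLC12A5, which are not members, are given beside them.

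The 6 sequenced libraries form 2 groups. A lentiviral vector had given the cells of 3 libraries a stable hairpin that targets TRIP6 (shTRIP6, genotype labelled TRIP6 knockdown) and those of the other 3 a scrambled hairpin (shControl, genotype labelled WT). Both groups were selected for weeks with 5 µg/ml puromycin, starting 36 h after infection, and total RNA was then taken. Whether a hairpin population was a pool or a clone, and whether both came from 1 stock, is not stated in the labels, so the hairpin and any difference of stock cannot be told apart. The replicates are called biological, but no label states that their cultures were separate, and p-values may measure only technical spread.

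SLC12 proteins carry chloride across membranes together with sodium, potassium or both, with no net charge. SLC12A2 (NKCC1) and SLC12A1 (NKCC2) import sodium, potassium and chloride, and SLC12A3 (NCC) imports sodium and chloride in the distal convoluted tubule of the kidney. SLC12A4 (KCC1), SLC12A5 (KCC2) and SLC12A7 (KCC4) carry potassium and chloride out of the cell and serve in the control of cell volume and intracellular chloride. SLC12A8 and SLC12A9 are distant members whose transport is less well defined, and SLC12A9 was first described as a protein that interacts with other cotransporters. WNK kinases act through the kinases SPAK (STK39) and OSR1 (OXSR1), which phosphorylate the cotransporters: this turns sodium-coupled importers on and potassium-chloride exporters off.

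The sequences upstream of 3 members are shown because these members span the differences described below, from the 2 whose transcripts were nearly absent in shTRIP6 to the member that differed least. Each is the 250 bases before the annotated start, 5′ to 3′ on the strand of the gene, with CpG dinucleotides in capitals (RefSeq, GRCh38.p14). The SLC12A3 sequence is chr16:56864957-56865206 on the plus strand, that of SLC12A7 is chr5:1112064-1112313 on the minus strand, and that of SLC12A2 is chr5:128083516-128083765 on the plus strand.
SLC12A3: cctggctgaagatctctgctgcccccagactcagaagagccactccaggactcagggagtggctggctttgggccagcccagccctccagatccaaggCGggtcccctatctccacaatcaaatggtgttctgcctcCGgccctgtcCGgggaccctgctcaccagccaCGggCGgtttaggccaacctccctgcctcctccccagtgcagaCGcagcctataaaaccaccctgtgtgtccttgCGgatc
SLC12A7: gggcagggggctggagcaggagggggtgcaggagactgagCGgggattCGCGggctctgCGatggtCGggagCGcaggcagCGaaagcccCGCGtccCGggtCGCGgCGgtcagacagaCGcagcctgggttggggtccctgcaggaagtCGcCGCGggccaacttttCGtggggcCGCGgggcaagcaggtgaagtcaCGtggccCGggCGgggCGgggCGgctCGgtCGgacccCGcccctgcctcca
SLC12A2: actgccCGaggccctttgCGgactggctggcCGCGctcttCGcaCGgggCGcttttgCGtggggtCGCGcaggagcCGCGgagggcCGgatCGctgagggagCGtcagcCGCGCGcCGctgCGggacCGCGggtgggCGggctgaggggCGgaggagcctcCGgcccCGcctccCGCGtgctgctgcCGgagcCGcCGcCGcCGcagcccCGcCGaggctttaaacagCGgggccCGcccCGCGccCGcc
The SLC12A3 sequence held 7 CpG dinucleotides at 62.8% G and C, that of SLC12A7 held 28 at 74.4%, and that of SLC12A2 held 40 at 79.6%. Over all 35116 windows of this length in the RefSeq table the median was 11 CpG dinucleotides, with quartiles of 3 and 23. The 2 nearly absent members therefore differed from each other in CpG number, with SLC12A3 below the median and SLC12A7 above the upper quartile. Of the other members, SLC12A8 had 3 CpG dinucleotides in its window and SLC12A9 had 13 and 27 in the windows of its 2 starts. SLC12A4, with 4 annotated starts, had 18, 22, 2 and 14. The windows of SLC12A8, SLC12A9 and SLC12A4 precede RefSeq starts and lie wholly or partly inside the GENCODE positions of these genes given below. Their CpG numbers therefore do not describe the sequence upstream of those positions.

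Motifs were searched in the same windows of all 6 members. The letters GGAATG (the core of TEAD sites, either strand) occurred once in the window of the first SLC12A9 start and once in that of the second SLC12A4 start, and in 11.9% of all windows. The letters TGANTCA (the AP-1 site, the same on both strands) were in no member window and in 6.57% of all windows. The letters TATAAA (either strand) occurred once, in the SLC12A3 window, where they read tataaa near its 3′ end, and in 10.7% of all windows. No motif of the 3 contains another.

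Library totals ran from 29605764 to 32089298 counts. With the scaled library sizes used for CPM (read counts scaled to library size), a single count was worth 0.0314 to 0.0336 CPM. TRIP6 itself averaged 19.5 ± 0.203 CPM in the shTRIP6 libraries and 80.3 ± 6.27 CPM in the shControl libraries (SD, n = 3). Of 15473 genes tested, 60.1% differed at a Benjamini-Hochberg adjusted p under 0.05 in edgeR's quasi-likelihood test, 29.0% higher and 31.2% lower in shTRIP6. Of 14 colon epithelial markers 4 were tested, and 1 rose and 1 fell. KRT19 rose to 50.6 ± 3.15 against 13.8 ± 2.27 CPM (log2 fold change 1.87, adjusted p = 7.84e-12), and CLDN4 fell to 0.0848 ± 0.0178 against 0.649 ± 0.286 CPM (-2.88, adjusted p = 0.000619). KRT8 and KRT18 were abundant in both groups and did not pass, while EPCAM, KRT20, VIL1, CDX1 and CEACAM5 had 0 counts in every library and CDX2 and CDH1 stood below 0.3 CPM on average in both groups. Of 11 fibroblast markers 10 were tested, and 2 rose and 6 fell. All 11 together summed to 167 to 188 CPM in shTRIP6 against 234 to 250 CPM in shControl. THY1 rose to 153 ± 10.5 against 89.3 ± 5.03 CPM and PDGFRB to 13.9 ± 1.18 against 6.88 ± 1.23 CPM. Among those that fell, FBLN1 stood at 7.25 ± 0.236 against 120 ± 1.75 CPM. DCN and POSTN had 0 counts in shTRIP6 and stood at 1.04 and 1.22 CPM in shControl. Both tested leukocyte markers, CD68 and CD14, rose, CD68 with libraries of the groups that overlapped. All 10 leukocyte markers listed summed to 236 to 245 against 187 to 236 CPM. Nearly all of this sum was CD68, at 239 ± 4.68 against 208 ± 24.9 CPM, with CD14 at 2.22 ± 0.540 against 0.520 ± 0.189 CPM. PTPRC stood at 0 counts in shTRIP6 and at 0.0974 CPM in shControl. Endothelial markers summed to 28.5 to 29.9 against 26.6 to 33.4 CPM, with 1 of 3 tested higher and 1 lower, and PECAM1 at 0 counts in shTRIP6 and 1.64 CPM in shControl. The part of other cells in the SLC12 differences was not tested.

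SLC12A3 had the widest difference of the 6 members. The protein-coding gene occupies chromosome 16, positions 56865207 to 56915850, plus strand (GENCODE, GRCh38, ENSG00000070915.9), and its exons overlap those of no other annotated gene. It had 12, 3 and 11 counts in the shTRIP6 libraries, at 0.376, 0.0959 and 0.354 CPM. In the shControl libraries it had 1124, 1362 and 1425 counts, at 37.8, 43.7 and 46.1 CPM. The groups did not overlap, and the highest shTRIP6 library lay far below the lowest shControl library. The ratio of shControl over shTRIP6 from the summed counts was 154, with a 95% exact interval of 105 to 237 that covers counting error only (log2 fold change of shTRIP6 over shControl -7.25 ± 0.19, SE from edgeR). Of the tested genes, 104 had a log2 fold change as low as this or lower, which is 0.672% of them. Without shTRIP6 replicate 1 the ratio from the summed counts was 190, and without shTRIP6 replicate 2 it was 117. In shTRIP6 replicate 2 the gene stood at the limit that a count of 0 allows, 3 counts, which is 0.0941 to 0.101 CPM in these libraries.

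Kidney cells were looked for through 9 markers of the distal nephron. UMOD, CALB1, PVALB, SCNN1B and SCNN1G had 0 counts in all 6 libraries, and the markers together summed to 0.480 to 0.659 CPM in shTRIP6 and 0.504 to 1.12 CPM in shControl. TRPM6, the magnesium channel of the distal convoluted tubule and the 1 marker that could be tested, stood at 0.562 against 0.650 CPM (edgeR adjusted p = 0.723). The list spans several segments, from the thick ascending limb to the collecting duct, and not only the distal convoluted tubule.

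SLC12A7, the gene of the potassium-chloride exporter KCC4, was the other member nearly absent in shTRIP6. It occupies chromosome 5, positions 1050376 to 1112035, minus strand (ENSG00000113504.20), with no exon shared with another annotated gene. Its shTRIP6 libraries had 9, 17 and 27 counts, at 0.282, 0.543 and 0.868 CPM. Its shControl libraries stood at 20.1, 26.1 and 25.4 CPM. The groups were again wholly apart, and the ratio from the summed counts was 42.5 (95% exact interval 32.4 to 57.0, counting error only, log2 fold change -5.40 ± 0.21). Without shTRIP6 replicate 1 the ratio was 33.9, and without shTRIP6 replicate 3 it was 58.1, which lies above that interval.

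SLC12A8 kept a measurable level in shTRIP6. It occupies chromosome 3, positions 125082636 to 125212864, minus strand (ENSG00000221955.10), and 48 of its exon bases overlap the small nuclear RNA pseudogene RNU6-230P. It stood at 2.95, 2.30 and 2.89 CPM in shTRIP6 and at 14.1, 15.1 and 13.3 CPM in shControl. The shTRIP6 mean of 2.71 ± 0.359 CPM was 19.2% of the shControl mean of 14.2 ± 0.915 CPM (log2 fold change -2.38 ± 0.15).

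SLC12A9 and SLC12A4 lay the other way. SLC12A9, on chromosome 7, positions 100826820 to 100867009, plus strand (ENSG00000146828.17), stood at 34.5, 32.3 and 33.4 CPM in shTRIP6 and at 14.8, 17.6 and 18.4 CPM in shControl. Every shTRIP6 library was above every shControl library, and the mean was 1.97 times the shControl mean (log2 fold change 0.98 ± 0.09). SLC12A4, the widely expressed exporter KCC1, occupies chromosome 16, positions 67943474 to 67969601, minus strand (ENSG00000124067.16). It stood at 59.4, 60.2 and 57.8 CPM in shTRIP6 and at 38.9, 37.0 and 40.3 CPM in shControl, a mean 1.53 times that of shControl (log2 fold change 0.61 ± 0.06). Of its exon bases, 336 overlap those of LCAT, which lies on the same strand and stood at 4.78 ± 0.488 against 4.08 ± 0.0224 CPM. No source used here states whether the counting used strand.

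SLC12A2, the importer NKCC1 of secretory epithelia, differed least. It occupies chromosome 5, positions 128083766 to 128189688, plus strand (ENSG00000064651.13) and shares no exon with another gene. Its libraries stood at 28.0, 28.4 and 29.9 CPM in shTRIP6 and at 27.3, 27.9 and 26.3 CPM in shControl. The lowest shTRIP6 library lay just above the highest shControl library, with a log2 fold change of 0.08 ± 0.07. Its spread was close to that of counting alone, with a coefficient of variation of 3.58% in shTRIP6 and 2.91% in shControl where counting gives 3.33% and 3.47%. The spread of SLC12A3, SLC12A7 and SLC12A9 in shControl was wider than counting gives, at 10.1% against 2.77%, 13.7% against 3.70% and 11.2% against 4.39%. For each of these genes shControl replicate 1 was the lowest shControl library. In shTRIP6 the spread of SLC12A3 was 56.6% against 34.0% from counting, and that of SLC12A7 was 52.0% against 23.8%.

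**Figure D1:**
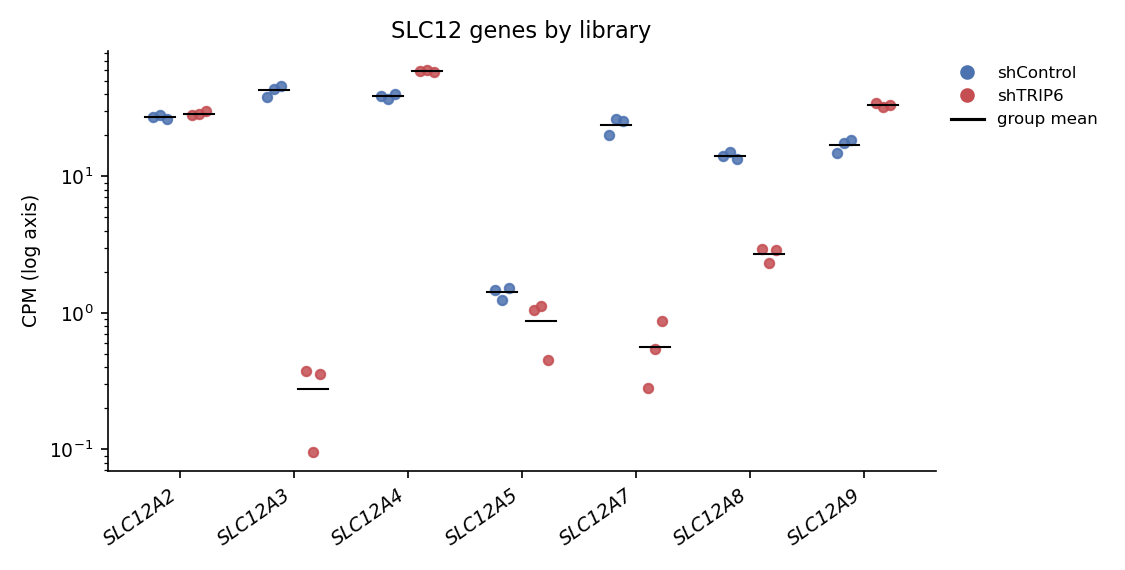
CPM of the SLC12 members and SLC12A5 in each library, on a log axis, with shControl in blue and shTRIP6 in red and a black line at each group mean (n = 3). SLC12A3 and SLC12A7 lie below 1 CPM in every shTRIP6 library, SLC12A4 and SLC12A9 lie above their shControl libraries, and the points of SLC12A2 nearly coincide.

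The libraries of the groups did not overlap for any of the 6 members, with 3 lower and 3 higher in shTRIP6, and 5 of the 6 were among the genes called, 3 lower and 2 higher. Among all tested genes 65.3% had groups that did not overlap and 60.1% were called. Nothing is read from these counts, because the members were chosen on the same comparison. Of the 14 other settings tried, none turned the direction of any member: SLC12A3 ranged from -7.53 to -6.84 on the log2 scale, SLC12A7 from -5.83 to -5.06, SLC12A8 from -2.44 to -2.27, SLC12A9 from 0.89 to 1.04, SLC12A4 from 0.58 to 0.66 and SLC12A2 from 0.06 to 0.13.

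SLC12A5, the neuronal exporter KCC2, stood at 1.04, 1.12 and 0.450 CPM in shTRIP6 against 1.48, 1.25 and 1.52 CPM in shControl and did not pass in the same fit (log2 fold change -0.70 ± 0.37, edgeR adjusted p = 0.110). Its antisense neighbour SLC12A5-AS1, which shares 197 exon bases with it, fell by 1.47 (adjusted p = 1.75e-05). SLC12A1, the renal importer NKCC2, had 0 counts in all 6 libraries.

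Levels of different genes were compared per kilobase of annotated exon, the union of all exons of a gene, as CPM per kb. In shControl the highest was SLC12A3 at 6.88 ± 0.693, followed by SLC12A4 at 4.67 ± 0.202, SLC12A7 at 3.99 ± 0.548, SLC12A2 at 2.55 ± 0.0742, SLC12A8 at 2.54 ± 0.164, SLC12A9 at 1.90 ± 0.213 and SLC12A5 at 0.159 ± 0.0162 (SD, n = 3). Libraries of neighbours in this order overlapped between SLC12A2 and SLC12A8, and were apart otherwise. In shTRIP6 the order began with SLC12A4 at 7.13 ± 0.147, SLC12A9 at 3.75 ± 0.127, SLC12A2 at 2.70 ± 0.0966 and SLC12A8 at 0.486 ± 0.0642. SLC12A5 at 0.0974 ± 0.0409, SLC12A7 at 0.0943 ± 0.0490 and SLC12A3 at 0.0445 ± 0.0252 came last, with libraries that overlapped between SLC12A5 and SLC12A7 and between SLC12A7 and SLC12A3. SLC12A3 thus went, among the SLC12 genes given here, from the highest level per kilobase of exon to the lowest of those with counts, and SLC12A9 from the sixth to the second place. With the longest transcript as the length, the first place in shControl passed to SLC12A4 at 8.13 CPM per kb, whose libraries then overlapped those of SLC12A3 at 7.64. SLC12A7 at 4.52, SLC12A8 at 4.11, SLC12A2 at 3.94 and SLC12A9 at 3.79 followed in shControl. Libraries of neighbours among these overlapped throughout, so the sixth place of SLC12A9 was not apart from the place above it. The order in shTRIP6 was the same with either length.

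Summed over the SLC12 genes given here, the level per kilobase was 14.3 ± 0.110 CPM per kb in shTRIP6 against 22.7 ± 1.40 in shControl. The sodium-coupled importers made up 41.5% ± 0.411 of this sum in shControl and 19.2% ± 0.750 in shTRIP6. In shControl SLC12A3 alone was 30.3% ± 1.26 of the sum and SLC12A2 11.3% ± 0.854, whereas in shTRIP6 SLC12A3 was 0.311% ± 0.175 and SLC12A2 18.9% ± 0.723. The exporters SLC12A4, SLC12A5 and SLC12A7 made up 38.9% ± 0.418 in shControl and 51.2% ± 1.32 in shTRIP6, and their makeup differed. Although their share was larger in shTRIP6, their summed level was lower there, at 7.32 ± 0.155 against 8.81 ± 0.546 CPM per kb in shControl. In shControl their share was spread over SLC12A4 (20.6%) and SLC12A7 (17.5%), and in shTRIP6 SLC12A4 reached 49.8% ± 1.21 with SLC12A7 at 0.660%. SLC12A9 went from 8.37% ± 0.437 to 26.2% ± 0.684. With the longest transcript as the length, the sum was 25.2 ± 0.227 CPM per kb in shTRIP6 against 32.4 ± 1.75 in shControl. The importers were then 16.8% in shTRIP6 against 35.8% in shControl, and the exporters 50.3% against 39.8%. The summed level of the exporters was then 12.7 ± 0.277 CPM per kb in shTRIP6 against 12.9 ± 0.656 in shControl. In bulk RNA, fewer cells that express a gene and less RNA of it per cell cannot be told apart.

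**Figure D2:**
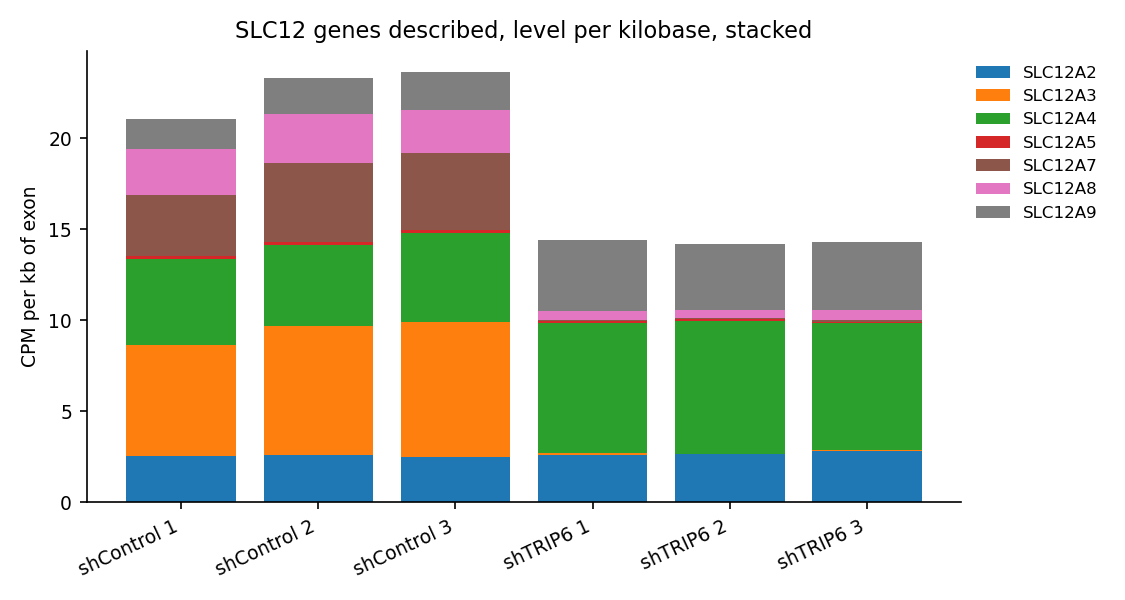
Level of each SLC12 gene given here in CPM per kilobase of annotated exon, stacked for each of the 6 libraries. The shControl stacks average 22.7 and the shTRIP6 stacks 14.3, and the SLC12A3 and SLC12A7 layers are hardly visible in shTRIP6.

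The kinases and adaptors that set the activity of the cotransporters moved in both directions. Of 13 such genes 12 could be tested, and 5 rose and 4 fell, 75.0% of those tested beside 60.1% of all genes, with a median log2 fold change of 0.06 beside -0.00397 over all genes. WNK4, the WNK kinase best known for the control of SLC12A3 in the kidney, stood at 25.6, 29.1 and 28.0 CPM in shTRIP6 and at 10.0, 10.2 and 10.6 CPM in shControl. Every shTRIP6 library was above every shControl library, and WNK4 rose by 1.42 ± 0.09 on the log2 scale (edgeR adjusted p = 1.64e-10). Its exons share 816 bases with COA3 on the opposite strand, which stood at 73.7 ± 3.69 against 74.3 ± 2.92 CPM.

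STK39, which encodes SPAK, the kinase that phosphorylates the cotransporters, stood at 50.6, 52.9 and 51.1 CPM in shTRIP6 and at 28.8, 26.9 and 27.7 CPM in shControl. It rose by 0.89 ± 0.07 (adjusted p = 1.33e-09), whereas OXSR1, its close relative OSR1, stood at 92.7 ± 2.39 against 98.7 ± 0.955 CPM and did not pass (log2 fold change -0.09, adjusted p = 0.131). CAB39L, a scaffold that activates SPAK and OSR1, rose to 5.61 ± 0.914 against 3.21 ± 0.567 CPM (log2 fold change 0.80, adjusted p = 0.00145). Its relative CAB39 rose by 0.26 (adjusted p = 0.000835), and the ubiquitin ligase gene NEDD4L rose by 0.25 (adjusted p = 0.000172). CAB39, NEDD4L and CUL3 were named after their values were seen, as were OXSR1, WNK1, WNK3 and KLHL2.

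WNK2 and KLHL3 were nearly absent in shTRIP6. WNK2, another kinase of the family, had 5, 0 and 1 counts in shTRIP6 and 159, 150 and 159 counts in shControl, at 0.0630 ± 0.0829 against 5.10 ± 0.267 CPM. It fell by 6.24 on the log2 scale (SE 0.44, adjusted p = 4.93e-10), and the ratio of shControl over shTRIP6 was 80.0 with an exact interval of 36.5 to 219. Of its 6 counts in shTRIP6, 5 came from replicate 1, and without that library the ratio was 318 (56.8 to 12582), resting on 1 count. KLHL3, the adaptor that hands WNK kinases to the CUL3 ubiquitin ligase, had 0, 7 and 2 counts in shTRIP6 and 33, 72 and 74 counts in shControl. It fell by 4.29 (SE 0.61, adjusted p = 6.55e-06), a ratio of 20.4 with an interval of 10.5 to 45.4. Without shTRIP6 replicate 2, which held 7 of the 9 counts, the ratio was 61.4 (16.7 to 511), and without shTRIP6 replicate 1 it was 13.5. For both genes the groups did not overlap, at mean levels of 5.10 and 1.94 CPM in shControl. SGK1, a kinase induced by glucocorticoids and mineralocorticoids that acts on NEDD4L, fell to 159 ± 1.44 against 243 ± 10.9 CPM (adjusted p = 1.83e-09), and CUL3 fell by 0.23 (adjusted p = 0.00414). WNK1, at 264 ± 2.37 against 288 ± 25.4 CPM, and KLHL2, at 22.1 ± 1.06 against 19.2 ± 1.40 CPM, did not pass (adjusted p = 0.0556 and 0.0519), and WNK3 was too low to be tested.

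**Figure D3:**
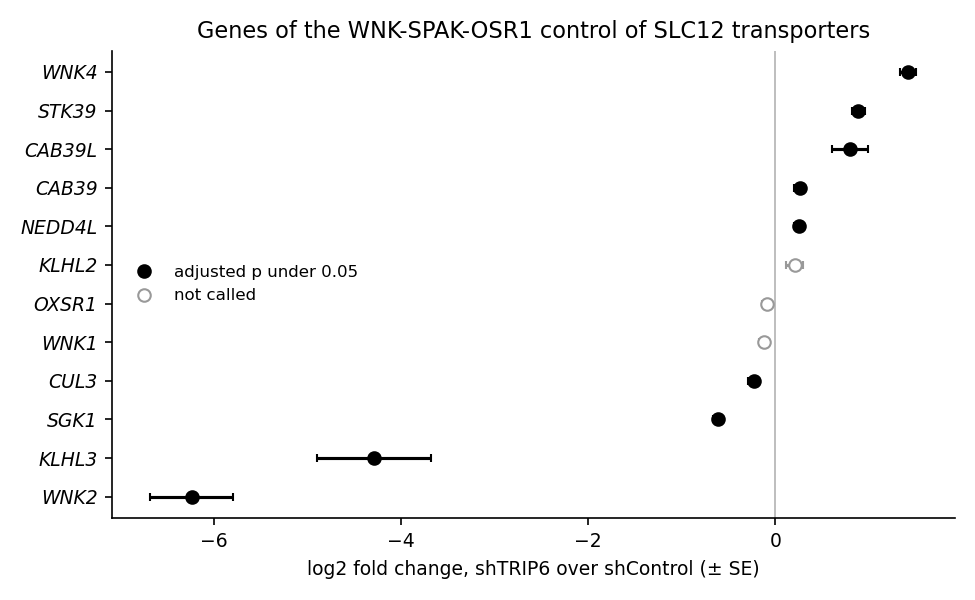
Log2 fold change of shTRIP6 over shControl with its SE for the 12 tested genes of the WNK, SPAK and OSR1 control of the cotransporters, filled where the edgeR adjusted p was under 0.05. WNK4 and STK39 lie at 1.42 and 0.89 and KLHL3 and WNK2 at -4.29 and -6.24.

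The sodium-potassium pump supplies the sodium gradient for the importers. Of 15 genes for subunits of this pump and of the proton-potassium pump and for FXYD proteins 4 could be tested, and 2 of these 4 fell, beside 31.2% lower and 60.1% called in either direction among all genes (median log2 fold change -0.11 over the 4). The beta subunit gene ATP1B1 stood at 127 ± 11.4 against 143 ± 5.83 CPM (-0.17 on the log2 scale, edgeR adjusted p = 0.0194), with libraries of the groups that overlapped. The call of ATP1B1 was lost under upper-quartile scaling (adjusted p = 0.0806) and without shTRIP6 replicate 1 (0.161), shTRIP6 replicate 2 (0.112), shControl replicate 2 (0.0665) or shControl replicate 3 (0.0592), with values from 0.000997 to 0.161. The other fall was that of FXYD3, named after its values were seen, at 0.0321 ± 0.0321 against 1.13 ± 0.528 CPM (adjusted p = 9.01e-06). FXYD5, at 357 ± 19.1 against 325 ± 39.2 CPM, and the beta subunit gene ATP1B3, at 193 ± 3.15 against 198 ± 4.93 CPM, did not pass (adjusted p = 0.0823 and 0.463).

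Genes listed as chloride channels, which include those of the lysosomal exchanger CLC-7 and its partner OSTM1, also went both ways. Of 30 symbols listed, 29 were in the table and 19 were tested, and 6 rose and 8 fell (73.7% of those tested beside 60.1% of all genes, median log2 fold change -0.07). Among the LRRC8 genes, which encode the channel that opens on swelling, LRRC8D stood at 33.6, 30.4 and 34.8 CPM in shTRIP6 and at 85.2, 84.2 and 79.7 CPM in shControl (log2 fold change -1.33 ± 0.07, edgeR adjusted p = 2.23e-12). LRRC8A, the subunit that the channel cannot do without, fell to 52.8 ± 1.71 against 91.3 ± 3.25 CPM (adjusted p = 6.67e-10). LRRC8B fell by 0.51 (adjusted p = 4.15e-05), whereas LRRC8C rose, at 46.4, 46.8 and 53.2 CPM in shTRIP6 against 38.7, 37.0 and 39.0 CPM in shControl (by 0.35 on the log2 scale, adjusted p = 0.000266). LRRC8E, at 8.53, 8.41 and 7.52 CPM against 6.85, 9.53 and 7.63 CPM, did not pass (adjusted p = 0.890). Of the 5 LRRC8 genes 3 thus fell and 1 rose, each with groups that did not overlap. Among all tested genes 65.3% had groups that did not overlap and 60.1% were called, and nothing is read from the count of LRRC8 genes. LRRC8B, LRRC8C and LRRC8E were named after their values were seen. BEST1, a calcium-activated channel gene at 1.07 ± 0.318 against 3.57 ± 0.805 CPM, fell by 1.73, and shares 1267 exon bases with FTH1. OSTM1, the partner of the lysosomal exchanger CLC-7, rose by 0.48, and TTYH2 and TTYH3 rose by 0.47 and 0.35. CLCN7, the gene of CLC-7 itself, fell to 73.9 ± 3.20 against 88.5 ± 9.29 CPM (log2 fold change -0.26, edgeR adjusted p = 0.00302). CLCN7 was also named after its values were seen.

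Among 30 genes of the SLC4, SLC9 and SLC26 families, which exchange or carry bicarbonate, protons, sodium and chloride, 21 were tested, and 9 rose and 6 fell (71.4% of those tested beside 60.1% of all genes, median log2 fold change 0.18). SLC4A4, an electrogenic sodium bicarbonate cotransporter gene, stood at 10.6, 8.95 and 11.3 CPM in shTRIP6 and at 1.71, 1.60 and 1.45 CPM in shControl. Its groups were apart, and it rose by 2.69 ± 0.17 (edgeR adjusted p = 1.57e-10). SLC4A8, a sodium-driven chloride bicarbonate exchanger gene, rose by 1.30 (adjusted p = 4.55e-07), and the anion exchanger gene SLC4A3 rose by 0.85. The sodium-proton exchanger gene SLC9A3 fell by 0.83, SLC4A11 fell by 0.60 and SLC4A7 fell by 0.50 on the log2 scale. Of the 5635 exon bases of SLC9A3, 2363 overlap those of PP7080 on the same strand. On the opposite strand, 839 overlap EXOC3 and 830 overlap SLC9A3-AS1. The widest fall of the list was that of SLC26A9, named after its values were seen, at a mean of 0.0213 against 0.736 CPM. SLC26A9 had 0, 2 and 0 counts in shTRIP6 and 36, 10 and 21 in shControl (log2 fold change -4.87, adjusted p = 0.000132). Of the 3 genes of this list with the largest rises, all belong to the SLC4 family.

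The genes beside each member on the chromosome were compared with it, taking the 3 nearest of the table on each side by gene start. Of 36 such genes 19 were tested, and 5 rose and 9 fell (73.7% of those tested beside 60.1% of all genes, median log2 fold change -0.11). The 9 include TRIP6, the target of the hairpin, and MIR6875, whose 72 bases all overlap exon bases of TRIP6 on the same strand. Nothing about the neighbours is read from this share. SLC12A9 and TRIP6 are neighbours on the plus strand of chromosome 7, with 128 bases between the end of SLC12A9 and the start of TRIP6. TRIP6 stood at 19.8, 19.4 and 19.5 CPM in shTRIP6 and at 73.9, 86.4 and 80.5 CPM in shControl (log2 fold change -2.04 ± 0.07, edgeR adjusted p = 1.25e-14), while SLC12A9 was higher in every shTRIP6 library. MIR6875, which overlaps an exon of TRIP6, fell by 2.61 (adjusted p = 2.57e-05). EPHB4, which shares 69 exon bases with SLC12A9 on the opposite strand, fell by 0.23 (adjusted p = 0.00673). That call was lost without shTRIP6 replicate 3 (0.0524) or shControl replicate 2 (0.0549), with values from 3.68e-05 to 0.0549.

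Beside SLC12A3, NUP93, a nuclear pore gene 14920 bases away, rose by 0.22 (edgeR adjusted p = 0.00135), and HERPUD1, an endoplasmic reticulum stress gene 16197 bases away on the other side, fell by 0.29 (adjusted p = 8.30e-05). The metallothionein gene MT1X, 181010 bases away, rose by 0.29 (adjusted p = 0.0246), a call lost without shTRIP6 replicate 1 (0.0916), shTRIP6 replicate 2 (0.0742) or shControl replicate 3 (0.0764), with values from 0.0101 to 0.0916. The 3 tested neighbours of SLC12A3 were thus within 0.29 of 0 on the log2 scale, beside -7.25 for SLC12A3. Beside SLC12A7 the tested neighbours were TRIP13, a gene of the meiotic and mitotic checkpoint, at 87.9 ± 5.21 against 88.4 ± 6.92 CPM, and BRD9, a chromatin remodelling gene, at 38.4 ± 0.961 against 39.8 ± 2.04 CPM. Neither passed (adjusted p = 0.906 and 0.544). The other 4 genes listed beside SLC12A7 were too low to be tested. NKD2, the nearest of them on the lower-coordinate side, had 0, 0 and 2 counts in shTRIP6 and 8, 3 and 5 counts in shControl, and the remaining 3 had 0 counts in every library.

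Near SLC12A8, HEG1, a membrane protein gene that lies 26677 bases away, fell by 0.67 (edgeR adjusted p = 1.12e-10). The integrin gene ITGB5 fell by 0.59 (adjusted p = 4.31e-09) and the zinc finger gene ZNF148 by 0.29 (adjusted p = 0.000285). These falls were all smaller than that of SLC12A8 itself. SNX4, the remaining tested neighbour of SLC12A8, stood at 29.3 ± 0.525 against 28.3 ± 0.644 CPM and did not pass (adjusted p = 0.555). Near SLC12A4, the immunoproteasome gene PSMB10 rose by 0.51 (adjusted p = 0.000176), DUS2 rose by 0.26 (adjusted p = 0.0190) and CTRL, a chymotrypsin-like protease gene at 1.48 ± 0.151 against 0.695 ± 0.435 CPM, rose by 1.09 (adjusted p = 0.0258). The call of CTRL was lost without shTRIP6 replicate 1 (0.0747), shTRIP6 replicate 3 (0.0751), shControl replicate 1 (0.0664) or shControl replicate 2 (0.110), with values from 0.00196 to 0.110. That of DUS2 was lost without shTRIP6 replicate 2 (0.0718) or shControl replicate 2 (0.0772), with values from 0.00662 to 0.0772. Near SLC12A2, FBN2, the fibrillin-2 gene, fell by 0.33 (adjusted p = 3.40e-06) and LINC01184, which lies 593 bases away on the opposite strand, fell by 0.42 (adjusted p = 0.00185).

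**Figure D4:**
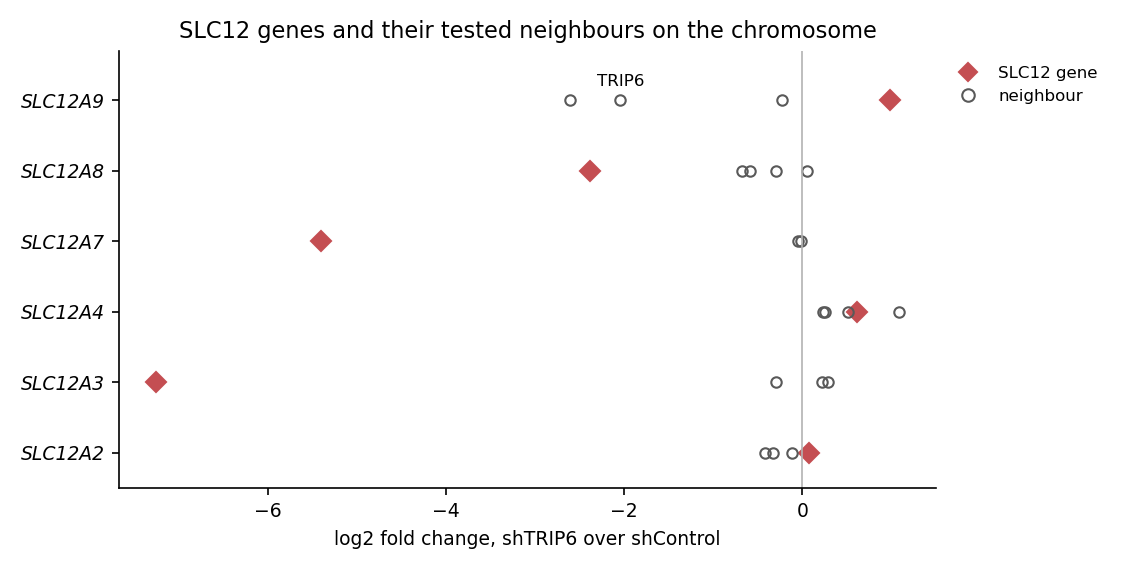
Log2 fold change of shTRIP6 over shControl for each SLC12 member (red diamond) and for its tested neighbours on the chromosome (open circles). SLC12A3 at -7.25 and SLC12A7 at -5.40 lie far from their tested neighbours, and SLC12A9 lies at 0.98 beside TRIP6 at -2.04.

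For each member the 3 tested genes with the most similar profile over the 6 libraries were taken, by the root mean square difference of log2(CPM + 0.1) values, each centred on its own mean. For SLC12A3 they included FA2H, a fatty acid hydroxylase gene (difference 0.296), and GDA, guanine deaminase (0.341). FA2H, like SLC12A3 on chromosome 16, stood at 0.0740 ± 0.0657 against 14.0 ± 0.814 CPM. For SLC12A7 they were the potassium channel gene KCNJ12 (0.180), the small GTPase gene RHOD (0.201) and the lipase gene LIPH (0.201), all under 0.5 CPM in shTRIP6 and above 10 CPM in shControl.

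The profile of SLC12A8 was nearest to CLEC2B (0.0582), GBP3 (0.0764) and LXN (0.0857), a lectin, a guanylate-binding protein and latexin, with LXN also on chromosome 3. That of SLC12A9 was nearest to TXNRD2, mitochondrial thioredoxin reductase (0.0502), PDLIM2 (0.0509) and the long noncoding RNA MYOSLID (0.0519). For SLC12A4 the nearest were RBM20 (0.0281), the talin gene TLN1 (0.0310) and PEA15 (0.0312), and for SLC12A2 they were DYNC1LI1 (0.0114), YTHDF2 (0.0147) and CUL9 (0.0153). These are descriptions over libraries of only 2 groups, which any gene with a similar difference between the groups would share.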

How the data were processed

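Each deposited file holds raw read counts by gene symbol for 1 library, not normalized as far as the values show. Per the submitters' processing notes, hg38 was the genome build and the tools were TopHat2, limma and edgeR, with no role or order given. For the counting, the tool, annotation and strand were not given in the sources used here. Library sizes were scaled by TMM, and CPM used the scaled sizes. The comparison of the groups used edgeR 4.0.16 in R 4.3.3 (filterByExpr, quasi-likelihood test, group as the only term, Benjamini-Hochberg adjustment over all 15473 tested genes), after a check on simulated data. SEs of log2 fold changes were derived from the F statistic. GENCODE release 29 (GRCh38) gave coordinates and lengths for 25811 of 27980 symbols, and RefSeq (GRCh38.p14) the upstream sequences. No build-specific coordinates are in the deposited files. No label names molecular identifiers, so reads may not be independent molecules and intervals cover counting error only.

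The members and lists were chosen with earlier results of these data known. Named were all SLC12 genes, TRIP6, up to 3 largest rises and falls of each list among its called genes at 1 CPM or more on average, called neighbours among the 3 nearest on each side, and the 3 genes most similar to each member. A few genes taken by this rule or held by these lists are not reported here, and list counts and SLC12 sums leave them out. Alternatives were RLE, upper-quartile and no scaling, DESeq2 1.42.0, limma-voom (limma 3.58.1), no low-count filter, a minimum of 1 CPM in 3 libraries, leaving out each library, the replicate number as a block, and the longest transcript as length.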

Additional observations from a re-analysis of the deposited data

How the results depend on the processing

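The direction of every member was the same in all 14 alternatives. Of the 51 other genes in the fit named by the rule, 46 lost no call in any of them. Among these 46, CUL9, DYNC1LI1, SLC12A5 and YTHDF2 were not called in the main fit and so had no call to lose. The 5 that lost a call, ATP1B1, CTRL, DUS2, EPHB4 and MT1X, are given above. Genes named outside the rule, such as FXYD3, CAB39, NEDD4L, CUL3, LRRC8B and LRRC8C, are not among the 51. YTHDF2, not called, passed under upper-quartile scaling (adjusted p = 0.0165, with values from 0.0165 to 0.250). Of the pump and FXYD genes the number higher was 0 by edgeR, DESeq2 and, after adjustment, limma-voom, 0 by edgeR at an unadjusted p under 0.05, and 1 under upper-quartile scaling, with no low-count filter and with the replicate block, and 0 to 1 when a library was left out. The number lower was 1 in place of 2 under upper-quartile scaling and with the minimum of 1 CPM in 3 libraries, where FXYD3 was not tested, and 1 to 2 when a library was left out. The number of neighbours called higher was 3 to 4 in place of 5 when a library was left out, with 3 without shTRIP6 replicate 1, shTRIP6 replicate 2 or shControl replicate 2. Same-numbered libraries of the groups did not deviate together (correlations of -0.023, -0.045 and -0.026), so the numbers were not taken as pairs, and with the replicate block 4377 genes were higher and 4702 lower, against 4487 and 4820 without it. With the longest transcript as the length, levels in CPM per kb in shTRIP6 and shControl were 4.18 and 3.94 for SLC12A2, 12.4 and 8.13 for SLC12A4, 0.787 and 4.11 for SLC12A8 and 7.48 and 3.79 for SLC12A9, and that of SLC12A3 in shControl was 7.64. Depth limits the low end: genes under about 0.1 CPM in a library, such as SLC12A3 in shTRIP6 replicate 2, rest on 3 counts or fewer.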
